A study of Mus musculus with 39 samples.

Results

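The genes described here encode the proteins of the mitochondrial ribosome. They were chosen by symbol alone: every gene whose symbol starts with Mrpl or Mrps followed by a number, pseudogene copies left out. This gave 78 members over the 4 deposited tables, 49 with an Mrpl symbol and 29 with an Mrps symbol. The 3 tables of lymph node dendritic cells (DC) hold 24421, 24421 and 24411 genes with 77, 77 and 78 members, and the table of T cells holds 7830 genes with 75 members. Mrpl58 was matched in the newest DC table and the T cell table. The other DC tables hold Ict1, a mitochondrial ribosomal protein under another name, which the symbol rule left out. Mrpl21, Mrpl23 and Mrps36 were not matched in the T cell table.

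Mitochondria carry their own ribosome, which translates the few messenger RNAs made from mitochondrial DNA, all of them for subunits of the oxidative phosphorylation complexes. Its proteins are encoded in the nucleus, made in the cytosol and imported, and they surround RNAs that come from the mitochondrial genome. In T cells, antigen recognition is known to set off growth and new mitochondrial mass, and DC change their metabolism when they mature. By known position, 51 members belong to the large subunit, including Mrps18a and Mrps30 despite their symbols, and 26 to the small subunit. The remaining member, Mrps36, is a subunit of the 2-oxoglutarate dehydrogenase complex. A bacterial counterpart is known for 45 members, and the others are specific to mitochondria.

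The study asked how DC respond when they meet T cells that recognise their antigen. Mice of the C57BL/6 background, 8 to 12 weeks old, received nanoparticles by subcutaneous injection at the hock, and cells were sorted from the popliteal and inguinal lymph nodes for 39 bulk libraries. The particles carried the adjuvant CpG with ovalbumin (OVA), which OT-I and OT-II T cells recognise, with bovine serum albumin (BSA), or with no protein. The T cell experiment compared OT-II CD4+ T cells at 20 h after OVA particles with those after BSA particles (n = 3 each). The time course used wild-type DC after OVA and CpG particles and after CpG-only particles, each at 12 and 24 h, and DC of non-immunized mice (n = 2 each). The costimulation experiment, at 12 h, used Cd80/86 -/- DC after OVA particles with OT cells, wild-type DC after OVA particles with OT cells, after BSA particles with OT cells, and after OVA particles without OT cells (n = 2 each). The last experiment used wild-type DC at 20 h after OVA and CpG particles, after BSA and CpG particles, and from non-immunized mice (n = 5 each). The design text speaks of mice engrafted with OT cells, but the labels of the time course and of the 20 h DC do not say library by library whether OT cells were given. Whether each replicate is a separate animal is not in the labels, and the spread behind every p-value may be technical.

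Total counts were 612017 to 1329203 per library in the time course, 628404 to 1621784 in the costimulation experiment, 367209 to 2052904 in the 20 h DC and 155088 to 1316341 recovered reads in the T cells. The summed level of 12 conventional DC markers was 17300 to 36640 CPM (counts scaled to a common library total) in the 20 h DC, against 30.65 to 115.6 CPM for 9 T cell markers. In the non-immunized libraries of the time course the same DC markers summed to 2589 and 4272 CPM and the T cell markers to 3558 and 3824 CPM, so these libraries held T cell RNA at a level near that of the DC markers. Cd86 transcripts were at 37.4 and 48.5 CPM in Cd80/86 -/- DC with OT cells, against 81.5 and 82.6 CPM in wild-type DC with OT cells, and Cd80 at 4.23 and 12.4 CPM against 11.4 and 10.0 CPM. Transcripts of both genes therefore remain, and a tag outside the deleted part checks nothing. In bulk samples, fewer cells of a type and less RNA per cell cannot be told apart.

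In OT-II T cells, mitochondrial ribosomal protein genes were higher after OVA particles than after BSA particles. Of 72 tested members, 18 were called higher and 0 lower at an adjusted p under 0.05 (limma with trend on log2 of the normalized count plus 1), where 10.8% of all 6452 tested genes were called higher and 5.04% lower. Without regard to a call, 68 of the 72 members (94.4%) had a positive log2 change, against 52.1% of all tested genes. The median change of the members was 0.61 on the log2 scale, with quartiles of 0.44 and 0.94, against 0.04 for all tested genes. The summed level of the members was 5687, 3845 and 4597 normalized counts in the OVA libraries, against 2797, 3082 and 2820 in the BSA libraries. The groups did not overlap in this sum, which averaged 4710 ± 926 and 2900 ± 158 normalized counts (SD, n = 3 each).

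**Figure D1:**
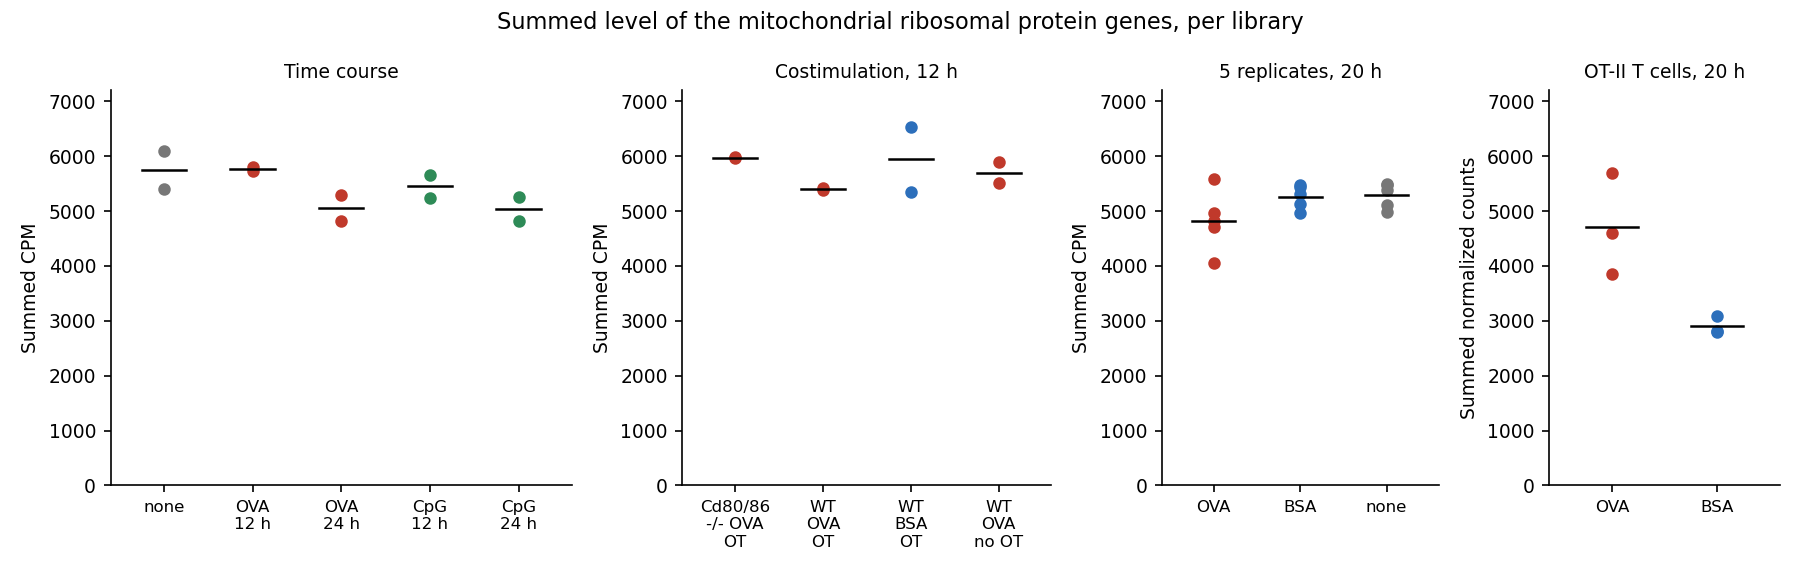
Summed level of the members in each library of the 4 experiments, in CPM for DC and in normalized counts for T cells, with a line at each group mean. The 3 T cell libraries after OVA particles (3845 to 5687) lie above the 3 after BSA particles (2797 to 3082), and the DC libraries range from 4047 to 6538.

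Depth and other RNA differed between the same T cell libraries. Recovered reads numbered 423594, 614630 and 1316341 in the OVA libraries, against 271134, 155088 and 402391 in the BSA libraries, so that depth and particle cannot be told apart in full. After random thinning of every library to the smallest total, an alternative chosen after seeing the data, edgeR and its filter replaced limma. Then 9 of 57 members were called higher, all among the 18, and none lower. Of 3436 genes, 11.7% were called higher and 8.88% lower. The median change in the thinned reads was 0.46 over members, against -0.05 over all genes. Test and filter changed together with depth, so their parts in the difference from the main fit cannot be told apart. Of 9 T cell markers, 2 were called lower (Cd3d and Bcl11b). The 9 markers summed to 1485, 1393 and 1294 normalized counts after OVA particles, against 1701, 1952 and 1789 after BSA particles. A list of 6 DC markers, of which Irf8 was called higher, summed to 586.7, 2811 and 1689 normalized counts after OVA particles, against 3100, 2354 and 2551 after BSA particles. Markers of B cells, none of 6 called, summed to 48.28, 553.8 and 269.3, against 605.2, 381.3 and 472.8 normalized counts. In OVA replicate 2 both sums lay within the range of the BSA libraries. This library also had the lowest member sum of the OVA libraries, 3845, and was the lowest OVA library for most of the called members. The part of other cells in the result was not tested. Xist was at 3.149, 2.016 and 50.02 normalized counts after OVA particles, against 87.51, 97.97 and 94.77 after BSA particles. The groups did not overlap, so a difference between animals or cells that goes with Xist cannot be told apart from the particle. Its part in the result was not tested.

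Large subunit genes made up 12 of the 18 called members, out of 49 tested, with a median change of 0.65 over the tested ones. Mrpl12, the stalk protein through which translation factors reach the ribosome, was at 266.6, 131.1 and 210.9 normalized counts in OVA libraries, against 66.75, 39.72 and 52.99 in BSA libraries. All 3 OVA libraries lay above all BSA libraries, a log2 change of 1.88 ± 0.28 (SE, adjusted p = 0.003). Mrpl20, whose bacterial counterpart acts early in assembly of the large subunit, was at 182.6, 117.6 and 129.1, against 35.6, 47.66 and 51.97 normalized counts. Here too the groups were apart, with a change of 1.64 ± 0.25 (adjusted p = 0.003). Mrpl17, a protein near the exit of the peptide tunnel, was at 151.1, 77.29 and 106.5 after OVA particles, against 43.01, 34.42 and 37.7 normalized counts after BSA particles. Its change was 1.47 ± 0.27 (adjusted p = 0.00613). Mrpl15, an RNA-binding core protein, was at 167.9, 85.35 and 104.1, against 41.53, 29.13 and 54.01 normalized counts. It changed by 1.48 ± 0.30 on the log2 scale (adjusted p = 0.00911).

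Next among large subunit genes stood small or core proteins with bacterial counterparts. Mrpl35 was at 56.68, 32.26 and 51.26 normalized counts after OVA particles, against 22.25, 15.89 and 16.3 after BSA particles. Mrpl36 was at 131.2, 68.55 and 96.96, against 43.01, 39.72 and 45.85 normalized counts. Mrpl1, which forms the mobile stalk beside the exit site for transfer RNA, was at 30.44, 28.23 and 26.56, against 8.899, 13.24 and 10.19 normalized counts. In these 3 genes the groups did not overlap, and the log2 changes were 1.29, 1.14 and 1.33 with adjusted p of 0.0145, 0.0145 and 0.0147. Mrpl16, near the peptidyl transferase centre, was at 58.78, 39.65 and 47.86, against 17.8, 26.48 and 19.36 normalized counts (1.17 ± 0.27, adjusted p = 0.0161). Mrpl19 closed this set at a change of 0.89 (adjusted p = 0.0269). Of the mitochondria-specific proteins of the large subunit, Mrpl51 was at 53.53, 57.13 and 52.18, against 26.7, 21.18 and 32.61 normalized counts (1.01 ± 0.25, adjusted p = 0.0208). Mrps18a, a relative of a small subunit protein that sits in the large subunit, was at 116.5, 65.19 and 76.58, against 37.08, 31.78 and 42.8 normalized counts (1.15 ± 0.27, adjusted p = 0.0148). Mrps30, also of the large subunit, was at 43.04, 29.57 and 45.7, against 19.28, 23.83 and 15.28 normalized counts. It was called at a change of 0.98 (adjusted p = 0.0391).

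Small subunit genes gave 6 calls among 23 tested, with a median change of 0.58. Mrps6, a protein of the platform, was at 107.1, 53.77 and 90.47 normalized counts after OVA particles, against 26.7, 7.944 and 33.63 after BSA particles. This was the highest fitted change among the 72 members, 1.99 ± 0.45 (adjusted p = 0.0136). Exons of Mrps6 share 305 bases with Gm49711 (19.9% of exon length) and 159 bases with Slc5a3 (10.4%), both on the same strand in the GENCODE annotation, and reads there cannot be assigned to one gene. Slc5a3 was at 14.69, 12.1 and 13.59 after OVA particles, against 8.899, 13.24 and 5.095 normalized counts after BSA particles, Gm49711 is not analysed here, and the part of shared reads in the Mrps6 change was not tested. Mrps7, whose bacterial counterpart starts assembly of the small subunit head, was at 83.97, 51.08 and 62.06, against 20.77, 34.42 and 26.49 normalized counts (1.24 ± 0.28, adjusted p = 0.0141). Mrps28 was at 127, 61.16 and 106.2, against 40.05, 50.31 and 39.74 normalized counts. Its change of 1.10 had an adjusted p of 0.0224. Mrps12, a protein of the decoding centre, was at 121.8, 83.34 and 104.7, against 50.43, 79.44 and 38.72 normalized counts, where BSA replicate 2 came close to the lowest OVA library (0.91, adjusted p = 0.0435). Mrps5 and Mrps10 were called at 1.10 and 1.11 (adjusted p = 0.0258 and 0.0486). Exons of other called members meet genes on the opposite strand, over 1962 bases in Mrpl19 (Gcfc2), and over 13.1% of exon length in Mrpl12 (Gm16755), 9.35% in Mrps30 and 6.13% in Mrps7 (Gga3).

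**Figure D2:**
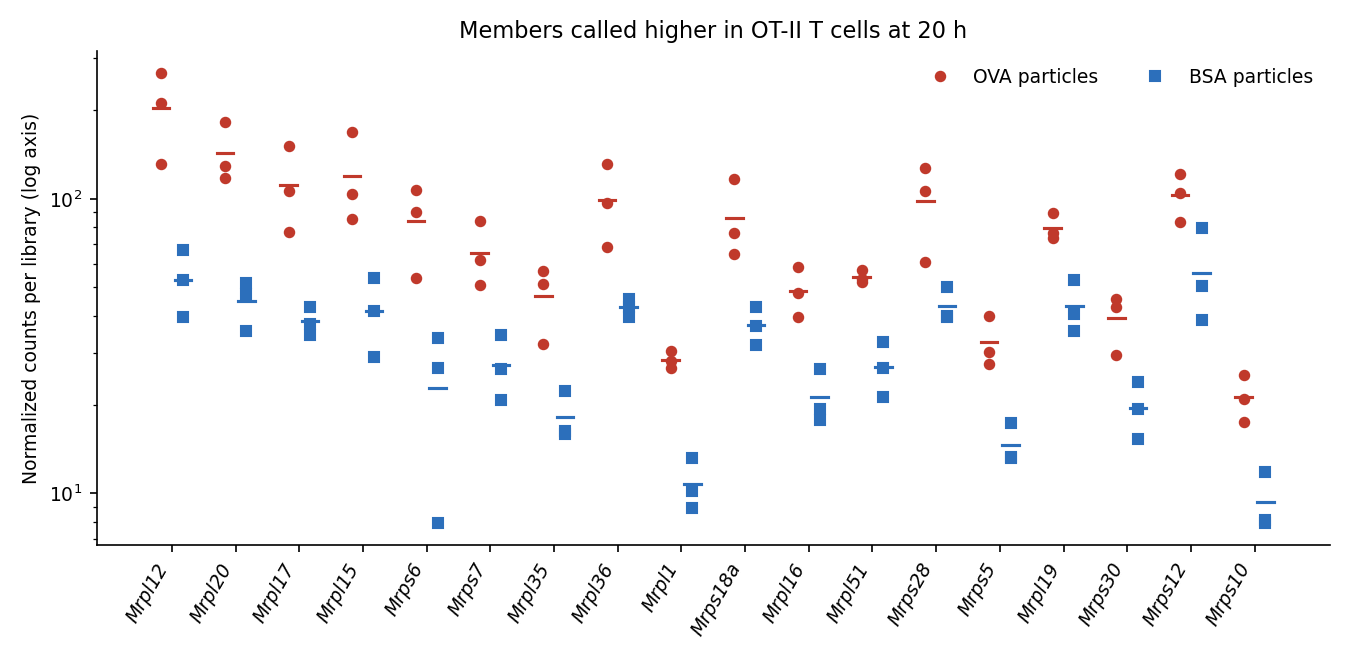
Normalized counts of the 18 called members in each OT-II T cell library on a log axis, with red circles for OVA particles, blue squares for BSA particles and a line at each group mean. In each of the 18 genes the 3 OVA libraries lie above the 3 BSA libraries, from 266.6 against 66.75 at the top of Mrpl12 to smaller gaps in Mrps12.

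Of the 43 tested members with a bacterial counterpart, 15 were called and the median change was 0.66. Of the 29 mitochondria-specific ones, 3 were called, where 10.8% of all tested genes were called higher. The median of the 29 was 0.56, with 28 of them positive. The difference between these sets was not tested. Across all tested members, 38 had every OVA library above every BSA library and 0 the reverse, where 21.5% and 15.4% of all genes did so. Mrpl52, a mitochondria-specific protein with the highest mean in these cells, was one of the 38, at 335.9, 204.3 and 260.3 after OVA particles, against 178, 193.3 and 182.4 normalized counts after BSA particles, but was not called (0.50, adjusted p = 0.112). Other members showed no such separation. Mrps18c, whose family pairs with that of Mrps6 on the bacterial platform, was at 13.65, 11.43 and 24.08, against 19.28, 23.83 and 16.3 normalized counts, with overlapping groups and a log2 change of -0.31. Mrpl14 had almost the same level in both groups, 50.05 ± 5.99 and 49.93 ± 2.67 normalized counts (SD, n = 3 each). Mrpl24, Mrpl58 and Mrpl14 were, with Mrps18c, the 4 members whose fitted change was below 0. Mrps18b, Mrps33 and Mrps27 were too low to be tested. Mrps18b was listed at 11.55, 6.721 and 8.028 after OVA particles, against 1.483, 2.648 and 3.057 normalized counts after BSA particles. The ratio of summed large to summed small subunit genes was 2.515 to 2.662 after OVA particles and 2.405 to 2.665 after BSA particles, so the ranges overlapped.

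The number of T cell calls depended on single libraries. Without OVA replicate 1, 5 members were called, and without OVA replicate 3, 7 members were called, against 25 without OVA replicate 2. Mrpl12, Mrpl15, Mrpl17, Mrpl20 and Mrps6 kept their call in every one of their 13 alternatives.

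Promoters are shown for the 4 called T cell genes of smallest adjusted p that have an entry. That of Mrps18c, which had the largest called change in DC, is shown beside them. Each line holds the 250 bases before the annotated start from RefSeq GRCm38.p6, written in the direction of transcription, and capitals mark matches to the letters of the motifs named after them.
Mrpl12 chr11:120484387-120484636 plus strand: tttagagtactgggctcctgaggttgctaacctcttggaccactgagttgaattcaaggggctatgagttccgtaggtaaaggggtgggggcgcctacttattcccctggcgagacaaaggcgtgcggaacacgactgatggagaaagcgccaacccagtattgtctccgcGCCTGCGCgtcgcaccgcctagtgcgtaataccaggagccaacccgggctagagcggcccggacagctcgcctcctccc
Mrpl20 chr4:155802628-155802877 plus strand: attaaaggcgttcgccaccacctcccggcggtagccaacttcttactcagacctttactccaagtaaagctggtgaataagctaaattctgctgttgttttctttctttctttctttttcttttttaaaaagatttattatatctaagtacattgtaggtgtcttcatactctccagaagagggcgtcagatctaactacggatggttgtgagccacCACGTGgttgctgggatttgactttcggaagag
Mrpl17 chr7:105811088-105811337 minus strand: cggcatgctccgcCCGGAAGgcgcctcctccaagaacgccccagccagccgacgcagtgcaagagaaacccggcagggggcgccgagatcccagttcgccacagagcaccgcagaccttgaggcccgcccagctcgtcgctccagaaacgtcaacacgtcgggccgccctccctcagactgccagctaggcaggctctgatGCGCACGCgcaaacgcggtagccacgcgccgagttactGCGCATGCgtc
Mrps6 chr16:92058086-92058335 plus strand: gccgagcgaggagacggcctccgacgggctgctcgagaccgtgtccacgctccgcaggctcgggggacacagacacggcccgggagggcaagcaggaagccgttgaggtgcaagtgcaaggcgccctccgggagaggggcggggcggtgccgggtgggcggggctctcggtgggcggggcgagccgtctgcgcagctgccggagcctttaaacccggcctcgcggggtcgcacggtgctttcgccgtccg
Mrps18c chr5:100798509-100798758 plus strand: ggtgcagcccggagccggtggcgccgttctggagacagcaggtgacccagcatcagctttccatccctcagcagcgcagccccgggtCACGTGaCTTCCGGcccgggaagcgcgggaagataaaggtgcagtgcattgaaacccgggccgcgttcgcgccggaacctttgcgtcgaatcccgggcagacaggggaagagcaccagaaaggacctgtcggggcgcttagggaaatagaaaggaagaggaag
The searched letters, on both strands, were GCNTGCGC and the full palindrome of the NRF1 site, CCGGAAG for ETS factors such as GABPA, AAGATGGC for YY1, and CACGTG, the E-box that MYC and other factors bind. A match to the full palindrome is also a match to GCNTGCGC. NRF1 and GABPA are known regulators of nuclear genes for mitochondrial proteins.

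Of 78 members, 69 had a promoter entry. GCNTGCGC stood in 18 of the 69 member promoters (26.1%), against 8.42% of 27025 promoters in the table. CCGGAAG stood in 17 member promoters (24.6%), against 7.05% in the table. AAGATGGC was in 4 (5.8% against 1.59%), the full NRF1 palindrome in 3 (4.35% against 0.781%) and CACGTG in 5 (7.25% against 6.05%). These shares describe letters in a window and no binding was measured. The 27025 promoters were not limited to genes expressed in these cells, so the gaps between the shares may reflect the kind of gene. Among members called in T cells, 3 of 15 with an entry held GCNTGCGC (20.0%), against 13 of 48 tested members that were not called (27.1%). CCGGAAG gave the same counts, 3 of 15 and 13 of 48. In the printed sequences, Mrpl12 held a GCNTGCGC match from position -79 to -72 before the start. Mrpl17 held GCNTGCGC matches from -49 to -42 and from -11 to -4 and CCGGAAG from -237 to -231. Mrpl20 held CACGTG from -33 to -28, and Mrps18c held CACGTG from -163 to -158 and CCGGAAG, on the other strand, from -156 to -150. None of these motifs was in the printed window of Mrps6.

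Other genes of mitochondrial protein synthesis were followed in the same T cells. Of the translation factors, 1 of 7 tested was called: Tsfm, the exchange factor for the mitochondrial elongation factor Tu, averaged 25.2 ± 5.49 normalized counts after OVA particles and 8.02 ± 2.13 after BSA particles (SD, n = 3 each, log2 change 1.54 ± 0.36, adjusted p = 0.0155). Of the assembly factors, 1 of 14 was called: Malsu1, which binds Mrpl14 on the large subunit, averaged 54.1 ± 17.1 and 26.0 ± 4.15 normalized counts (1.00 ± 0.28, adjusted p = 0.0331). None was called among 4 ribosomal proteins with other names, 9 mitochondrial aminoacyl-tRNA synthetases and 6 genes of mitochondrial DNA transcription and replication, whose median changes were 0.56, 0.29 and 0.56. Of the regulators, 2 of 7 were called. Myc averaged 141.6 ± 44.3 after OVA particles and 29.3 ± 8.07 normalized counts after BSA particles (2.22 ± 0.28, adjusted p = 0.0026). Pprc1, a coactivator related to PGC-1, averaged 36.4 ± 11.6 and 12.7 ± 5.58 normalized counts (1.49 ± 0.37, adjusted p = 0.019). Ppargc1b had a change of -0.01 (adjusted p = 0.991).

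Genes for oxidative phosphorylation, the complexes that the mitochondrial ribosome serves, gave 16 higher and 1 lower among 74 tested, with a median of 0.50. Atp5g1 averaged 159.3 ± 38.6 after OVA particles and 59.0 ± 5.45 normalized counts after BSA particles (1.39 ± 0.23, adjusted p = 0.00457). Cox7a2l was the lower one, at -1.0 ± 0.23 (adjusted p = 0.0141). Cytosolic ribosomal proteins gave 2 higher and 2 lower among 77 tested, with a median of 0.01. Rps2 (0.85) and Rps27l (1.25) were higher, and Rps27 (-1.05) and Rpl39 (-0.57) were lower. These medians stood beside 0.61 for the mitochondrial ribosomal proteins, and the differences between lists were not tested.

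In DC few of the same genes were called. Over 15 comparisons and 1101 tests of members, 20 calls were made (edgeR quasi-likelihood test, adjusted p under 0.05), where 6.75% of the tests of all genes in these comparisons gave a call. The comparisons share libraries. The calls fell on 11 members with log2 changes of 0.48 to 1.46 in size. Together with the T cells, 4 members were called in both kinds of cell (Mrpl17, Mrps28, Mrps5 and Mrps6) and 53 members in no comparison. Against non-immunized DC, the fitted log2 change lay 0.14 to 0.23 above the plain ratio of CPM, because the fit rescales the libraries by TMM. Levels are given below as plain CPM and changes as fitted.

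**Figure D3:**
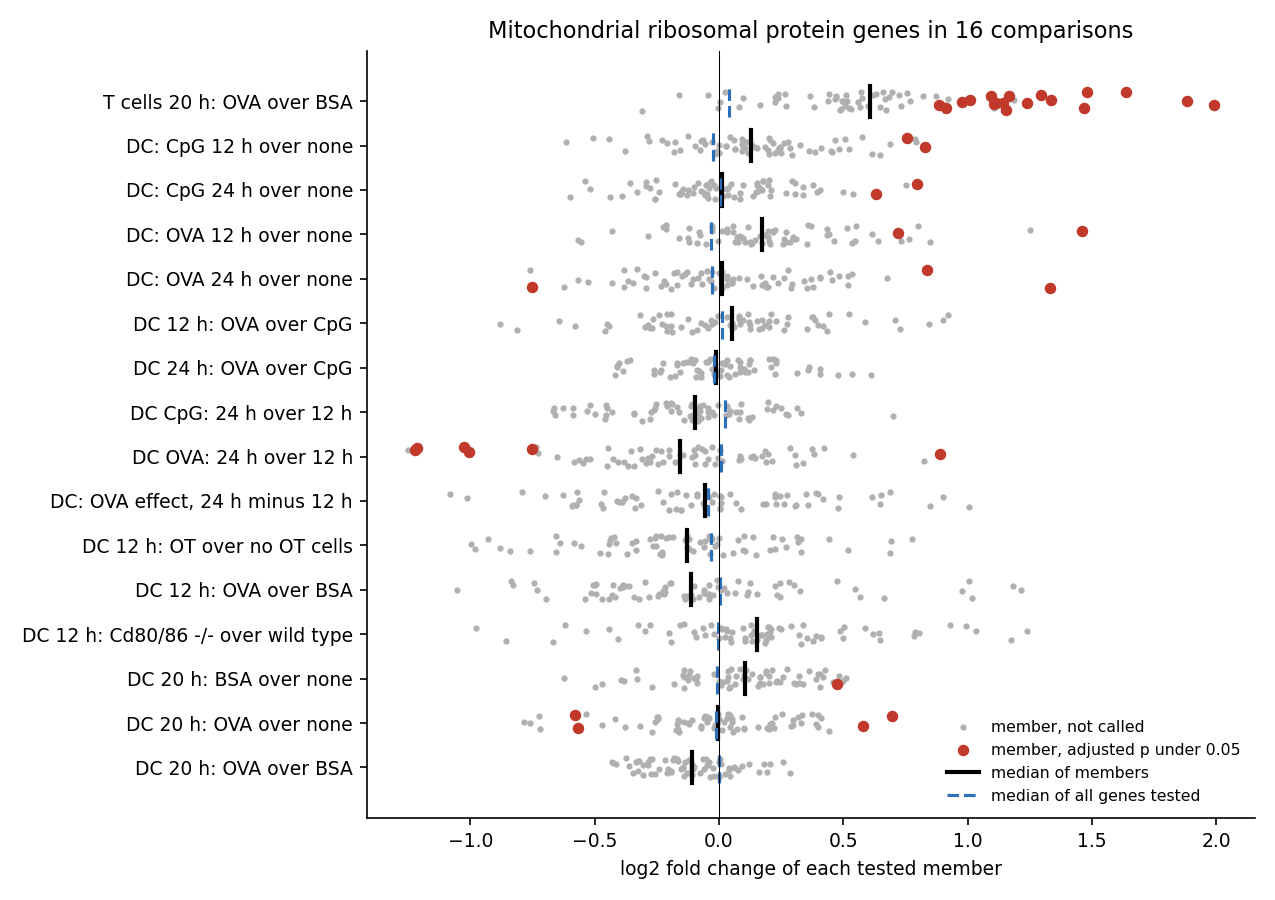
The log2 change of each tested member (points) in the 16 comparisons, with red points for members at an adjusted p under 0.05, black lines at the median of the members and blue dashed lines at the median of all tested genes. The T cell row lies to the right, with a member median of 0.61, and the DC rows lie near 0, with fitted medians from -0.16 to 0.17. Against non-immunized DC the medians above 0 turn negative as plain CPM ratios.

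At 12 h after OVA and CpG particles, 2 of 73 tested members were higher than in non-immunized DC and none lower, where 9.56% of 9428 genes were called higher and 4.04% lower. Mrps18c, the platform protein, was at 43.14 and 43.61 CPM, against 20.39 and 16.16 CPM in non-immunized DC. It was the largest called change of a member in DC, 1.46 ± 0.31 (adjusted p = 0.00479), and was lost without non-immunized replicate 2 (adjusted p = 0.0789). Part of its exons, 23.2%, overlaps Gm43511 on the same strand. Mrpl30, a large subunit protein with a bacterial counterpart, was at 258 and 293 CPM, against 194.1 and 197.5 CPM (0.72 ± 0.18, adjusted p = 0.0127). The Mrpl30 call was lost without either non-immunized library or without 12 h replicate 2 (adjusted p = 0.0967 to 0.113). The members' median change was 0.17 as fitted, against -0.03 for all genes. As a plain CPM ratio it was -0.05, against -0.26 for all genes, so its direction depends on the scaling. T cell markers summed to 1857 and 1932 CPM, against 3558 and 3824 CPM in non-immunized DC. Their part in the 12 h changes was not tested.

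At 24 h after OVA and CpG particles, 2 of 73 members were higher and 1 lower than in non-immunized DC, where 10.2% of genes were called higher and 3.92% lower. Mrpl14, a protein at the interface of the subunits, was at 235.4 and 221.1 CPM, against 113.3 and 96.96 CPM in non-immunized DC. With 1.33 ± 0.21 (adjusted p = 0.000251) it had the smallest adjusted p of any member in DC and kept its call in each of 8 alternatives. None of these alternatives took cell types into account. T cell markers summed to 1700 and 1988 CPM at 24 h, against 3558 and 3824 CPM in non-immunized DC. Markers of migratory DC summed to 4120 and 5160 CPM, against 431.8 and 655.6 CPM. The part of these cell types in the 24 h changes was not tested. Mrps6 was at 61.4 and 65.23 CPM, against 40.77 and 41.3 CPM (0.84 ± 0.25, adjusted p = 0.0348). Mrpl33, a large subunit protein with a bacterial counterpart, fell to 143.3 and 201.7 CPM, against 355.5 and 316.9 CPM (-0.75 ± 0.22, adjusted p = 0.031). The median over members was 0.01 as fitted and -0.20 as a plain CPM ratio, with 37 of the fitted changes positive and 36 negative. Without one of 3 libraries (either control or 24 h replicate 1) Mrpl33 was not called (adjusted p = 0.0887 to 0.298), and Mrps6 was not called without any one of the 4 libraries (0.111 to 0.173) nor with DESeq2 (adjusted p = 0.206). Exons of Mrpl14 share 11.2% of their length with Tmem63b on the opposite strand, and whether the counting used strand is not given in the sources used here.

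After CpG-only particles at 12 h, 2 of 73 members were higher than in non-immunized DC and none lower, where 11.6% of genes were called higher and 4.65% lower. At 24 h, again 2 were higher and none lower, where 7.96% of genes were called higher and 3.05% lower. Mrpl14 was at 160 and 146.2 CPM at 12 h and at 183 and 139.2 CPM at 24 h, above the 113.3 and 96.96 CPM of non-immunized DC (0.76 ± 0.21, adjusted p = 0.0204, and 0.80 ± 0.21, adjusted p = 0.0196). Mrps6 was at 56.34 and 70.14 CPM at 12 h, against 40.77 and 41.3 CPM (0.83 ± 0.25, adjusted p = 0.034). Mrpl30 was at 243.5 and 282.1 CPM at 24 h, against 194.1 and 197.5 CPM (0.63 ± 0.18, adjusted p = 0.0302). In each case both particle libraries lay above both non-immunized libraries. The 12 h call of Mrpl14 was lost without any one of the 4 libraries (adjusted p = 0.0556 to 0.201) and its 24 h call without either control or 24 h replicate 1 (adjusted p = 0.0672 to 0.208). Mrps6 was lost without either control or 12 h replicate 2 (adjusted p = 0.157 to 0.197), and Mrpl30 without either control or 24 h replicate 2 (adjusted p = 0.159 to 0.191). The 4 comparisons with non-immunized DC share the same 2 control libraries, so a high or low control moves all of them. Markers of neutrophils summed to 12550 and 16320 CPM in the CpG-only libraries at 12 h, against 99.65 and 154.9 CPM in non-immunized DC. Their part in the 12 h changes was not tested. In the CpG-only libraries at 24 h, T cell markers summed to 2083 and 2304 CPM, against 3558 and 3824 CPM in non-immunized DC. Markers of migratory DC then summed to 1908 and 2812 CPM, against 431.8 and 655.6 CPM. Monocyte and macrophage markers summed to 840.4 and 1113 CPM, against 2459 and 2534 CPM. The part of these cell types in the 24 h changes after CpG-only particles was not tested.

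Related genes were followed in the same comparisons with non-immunized DC. At 12 h after OVA and CpG particles, 5 of 74 oxidative phosphorylation genes were higher and none lower, with a fitted median of 0.31. Atp5f1, of the ATP synthase, averaged 499.2 ± 18.02 CPM, against 361.8 ± 30.4 CPM in non-immunized DC (SD, n = 2 each, 0.69 ± 0.17, adjusted p = 0.0113). Slirp, a partner of Lrpprc on mitochondrial messenger RNA, was higher (1.12 ± 0.32, adjusted p = 0.0298). Noa1, a GTPase of mitochondrial ribosome assembly, was lower at 12 h after OVA and CpG particles (-1.08 ± 0.34, adjusted p = 0.0422) and after CpG-only particles (-1.08 ± 0.35, adjusted p = 0.0438). Ppargc1b, a coactivator of mitochondrial genes, was lower at 12 h with OVA (-2.99 ± 0.66, adjusted p = 0.00571) and without it (-1.94 ± 0.60, adjusted p = 0.0367). Its 12 h levels were near the floor, at 0 and 4.884 CPM with OVA and 2.985 and 9.014 CPM without it. In non-immunized DC it was at 26.09 and 31.42 CPM. At 24 h after OVA and CpG particles, Mtif3 averaged 73.0 ± 14.4 CPM, against 33.9 ± 7.36 CPM (1.31 ± 0.29, adjusted p = 0.00558). Cytosolic ribosomal proteins then gave 7 lower and 1 higher of 79, with a median of -0.39. At 24 h after CpG-only particles no gene of these lists was called by edgeR.

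**Figure D4:**
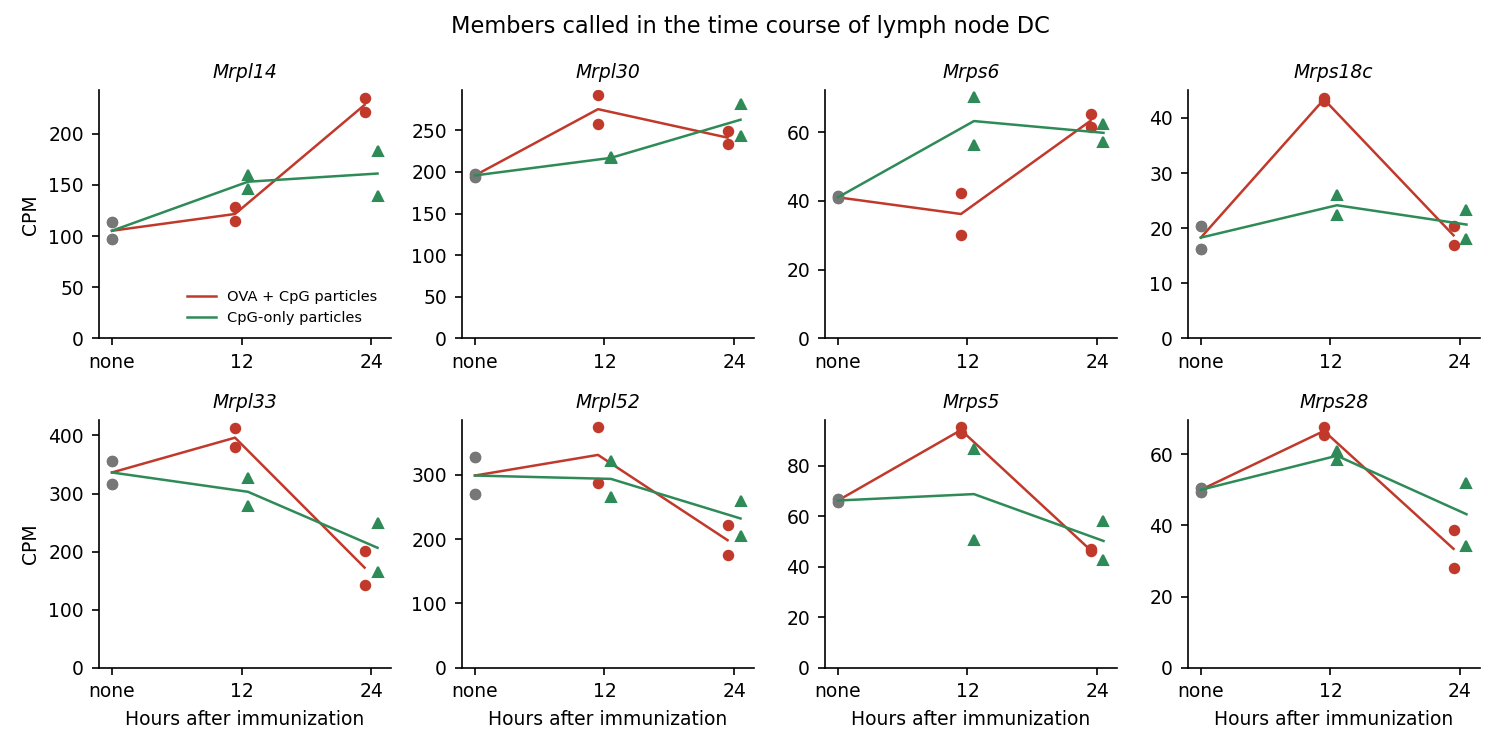
CPM of 8 members called in the time course, against hours after immunization, with grey points for non-immunized DC, red circles for OVA and CpG particles, green triangles for CpG-only particles and lines through the means of 2 libraries. Mrpl14 reaches 221.1 to 235.4 CPM at 24 h after OVA and CpG particles, and Mrps18c stands at 43.14 and 43.61 CPM at 12 h in that group.

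The largest number of member calls in DC came between 24 h and 12 h after OVA and CpG particles: 1 higher and 5 lower at 24 h among 73 tested, where 5.03% of genes were called higher and 3.87% lower. Mrpl14 was at 235.4 and 221.1 CPM at 24 h, against 128.6 and 114.5 CPM at 12 h (0.89 ± 0.21, adjusted p = 0.0117). Mrpl33 was at 143.3 and 201.7 CPM, against 379.3 and 412.9 CPM (-1.22 ± 0.22, adjusted p = 0.00225). Mrps5, a small subunit protein tied to decoding accuracy, was at 46.05 and 47.11 CPM at 24 h, against 92.79 and 95.39 CPM at 12 h (-1.03 ± 0.26, adjusted p = 0.0221). For these genes the times did not overlap. Mrps28 was at 28.14 and 38.66 CPM, against 67.56 and 65.41 CPM (-1.01 ± 0.27, adjusted p = 0.0263). Mrps18c was back at 20.47 and 16.91 CPM, against 43.14 and 43.61 CPM at 12 h (-1.22 ± 0.33, adjusted p = 0.0299). Mrpl52 was at 175.3 and 221.1 CPM, against 286.5 and 374.7 CPM (-0.75 ± 0.21, adjusted p = 0.0349). All 5 lower genes were thus lower in both 24 h libraries.

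The median over members was -0.16, against 0.01 for all genes, with 23 of 73 positive. The number of calls rests on few libraries: it was 2 without 12 h replicate 1, 1 without 12 h replicate 2, 0 without 24 h replicate 1 and 2 without 24 h replicate 2. In the same comparison 13 of 74 oxidative phosphorylation genes were lower and none higher (median -0.37), among them Ndufb2 (-1.16), Atp5j (-0.97) and Cox6c (-0.89). Cytosolic ribosomal proteins gave 8 lower of 79 (median -0.39), and Mtif3, a mitochondrial initiation factor, was higher (1.17 ± 0.30, adjusted p = 0.0229). All 7 monocyte and macrophage markers were lower at 24 h, with sums of 866 and 915.6 CPM at 24 h, against 2585 and 2784 CPM at 12 h. Markers of migratory DC were at 4120 and 5160 CPM at 24 h, against 843.5 and 1017 CPM at 12 h. The part of these cell types in the member changes was not tested.

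After CpG-only particles no member was called between 24 h and 12 h, where 7.63% of genes were called. At an unadjusted p under 0.05 there were 5 members and 21.2% of genes, and DESeq2 called 0 members. The smallest p belonged to Mrpl4, at 65.36 and 68.46 CPM at 24 h, against 120.6 and 88.04 CPM at 12 h (-0.66, adjusted p = 0.107), and to Mrpl33 (-0.59, adjusted p = 0.127). Of 73 members, 21 were positive and the median was -0.10. Mrpl4 has a bacterial counterpart in the large subunit, as Mrpl33 does. Without 24 h replicate 1, 1 member was called. Adding OVA to the particles gave no called member at either time. At 12 h, where 2.46% of genes were called, OVA and CpG particles differed from CpG-only particles most in Mrpl3, a core protein of the large subunit, at 52.09 and 64.05 CPM, against 34.93 and 25.37 CPM (0.92, adjusted p = 0.118). Mrpl35 was next, at 59.42 and 76.31 CPM, against 41.69 and 29.85 CPM (0.90, adjusted p = 0.125). In both genes the groups were apart, which the choice by smallest p favours, and neither passed the test. At this time 8 members and 12.9% of genes had an unadjusted p under 0.05, and DESeq2 called 0 members.

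At 24 h the same comparison called 0% of genes, and 1 member, Mrpl14, had an unadjusted p under 0.05, as 10.2% of genes did (0.53, adjusted p = 0.361), with 0 called by DESeq2, which gave an adjusted p for 9 members. Mrpl13, of the large subunit, followed at 0.48 (adjusted p = 0.492). Whether the OVA effect differed between 24 h and 12 h was tested directly. In that interaction 3.38% of genes and 0 of 73 members were called, with 4 members and 14.9% of genes at an unadjusted p under 0.05 and 0 members called by DESeq2. Mrpl14 (0.85, adjusted p = 0.149) and Mrpl3 (-1.08, adjusted p = 0.172) had the smallest p. Without CpG-only replicate 1 at 24 h, 1 member was called.

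In the costimulation experiment no member was called in any comparison by edgeR or DESeq2. With OT cells against without OT cells after OVA particles, 2.60% of 9355 genes and 0 of 75 members were called, and 5 members and 17.4% of genes had an unadjusted p under 0.05. Mrpl14 was at 229.3 and 210.3 CPM with OT cells, against 123.9 and 161.7 CPM without them (0.69, adjusted p = 0.195). Mrpl12 went the other way, at 60.93 and 43.82 CPM, against 87.56 and 99.54 CPM (-0.76, adjusted p = 0.217). These groups were apart in both genes, but the genes were named for their smallest p, which favours such gaps. Neither passed. Of 75 members, 23 were positive, with a median of -0.13. NK cell markers summed to 26.29 and 120.3 CPM with OT cells, against 1948 and 5198 CPM without them, and their part was not tested.

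After OVA particles against BSA particles at 12 h, both with OT cells, 0.0107% of genes and 0 members were called, with 7 of 75 members and 9.09% of genes at an unadjusted p under 0.05. Without BSA replicate 1, 1 member was called. Mrpl12 was at 60.93 and 43.82 CPM, against 84.34 and 148.5 CPM (-1.05, adjusted p = 0.455), and Mrpl33 at 348.1 and 349.3 CPM, against 222.8 and 137.9 CPM (1.02, adjusted p = 0.455). Mrpl12 thus stood lower in DC after OVA particles in these libraries, though not past the test, and was called higher in T cells after OVA particles. The cells, times and tables differ between those results, and the difference was not tested. In Cd80/86 -/- against wild-type DC, both after OVA particles with OT cells, 0% of genes were called. Mrpl35 was at 60.68 and 58.45 CPM in Cd80/86 -/- DC, against 24.37 and 23.79 CPM in wild-type DC (1.24, adjusted p = 0.283), and Mrpl22, a large subunit protein near the exit tunnel, at 23.99 and 26.11 CPM, against 9.901 and 11.27 CPM (1.18, adjusted p = 0.36). Both genes were named for having the smallest p, a choice that favours groups that stand apart, and neither was called. Markers of migratory DC summed to 3060 and 3902 CPM in Cd80/86 -/- DC, against 7013 and 8397 CPM in these wild-type DC. Monocyte and macrophage markers summed to 7057 and 8801 CPM, against 4285 and 4354 CPM. The part of these cell types in the member differences was not tested. A total of 10 members had an unadjusted p under 0.05, where 11.4% of genes had one, 54 of 75 were positive and the median was 0.15, against 0.00 for all genes.

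In the 20 h DC, OVA and CpG particles gave 2 members higher and 2 lower than in non-immunized DC among 73 tested, where 9.59% of 9159 genes were called higher and 6.04% lower. Mrpl27, a protein that reaches towards the peptidyl transferase centre, was at 45.58, 42.52, 57.48, 43.91 and 42.78 CPM, against 31.75, 27.39, 35.4, 32.96 and 34.46 CPM in non-immunized DC. The groups did not overlap, and OVA replicate 3 stood above the other OVA libraries (0.70 ± 0.17, adjusted p = 0.0063). Mrps6 was at 91.95, 110.1, 109.1, 101.3 and 127.7 CPM, against 68.97, 73.04, 89.87, 101.3 and 71.57 CPM, with some overlap (0.58 ± 0.15, adjusted p = 0.0131). Mrpl57 and Mrpl52, both mitochondria-specific large subunit proteins, were lower. Mrpl57 was at 98.24, 66.5, 69.17, 80.03 and 98.32 CPM, against 146.7, 136.2, 160.7, 133.1 and 110 CPM (-0.57 ± 0.16, adjusted p = 0.0176). Mrpl52 was at 229.5, 183.1, 154.9, 194.8 and 243.9 CPM, against 340.5, 265.5, 454.8, 299.1 and 318.7 CPM (-0.58 ± 0.17, adjusted p = 0.0242). In both of these genes all OVA libraries lay below all non-immunized libraries. Mrpl52 missed the threshold without non-immunized replicate 3 (adjusted p = 0.0506), and Mrps6 without non-immunized replicate 1 (0.0523) or OVA replicate 5 (adjusted p = 0.0517). All 4 calls were kept with a term for Y-linked transcripts.

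BSA and CpG particles gave 1 member higher than in non-immunized DC among 73 and none lower, where 3.68% of genes were called higher and 1.77% lower. Mrpl17 was at 108, 101.6, 120.9, 102.7 and 105.2 CPM, against 75.54, 85.98, 87.14, 101.9 and 77.53 CPM (0.48 ± 0.14, adjusted p = 0.0409). Non-immunized replicate 4 reached into the BSA range. With a term for Y-linked transcripts, added after seeing the data, the call was lost (adjusted p = 0.141). These transcripts exceeded 20 CPM in OVA replicates 3 and 4 and in non-immunized replicates 1, 2 and 3. It was also lost without any one of BSA replicates 1, 3, 4 and 5 and non-immunized replicates 1, 2, 3 and 5 (adjusted p = 0.0586 to 0.137). OVA against BSA particles at 20 h called 0% of genes and 0 of 73 members, with 2 members and 6.13% of genes at an unadjusted p under 0.05 and 0 members called by DESeq2, which gave an adjusted p for 11 members. The 2 members were Mrpl57, at 98.24, 66.5, 69.17, 80.03 and 98.32 CPM, against 102.2, 127.5, 111.7, 126.5 and 93.81 CPM (-0.43, adjusted p = 0.728), and Mrpl41, also mitochondria-specific (-0.37, adjusted p = 0.766). Of 73 members, 19 were positive and the median was -0.11, against 0.00 for all genes.

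**Figure D5:**
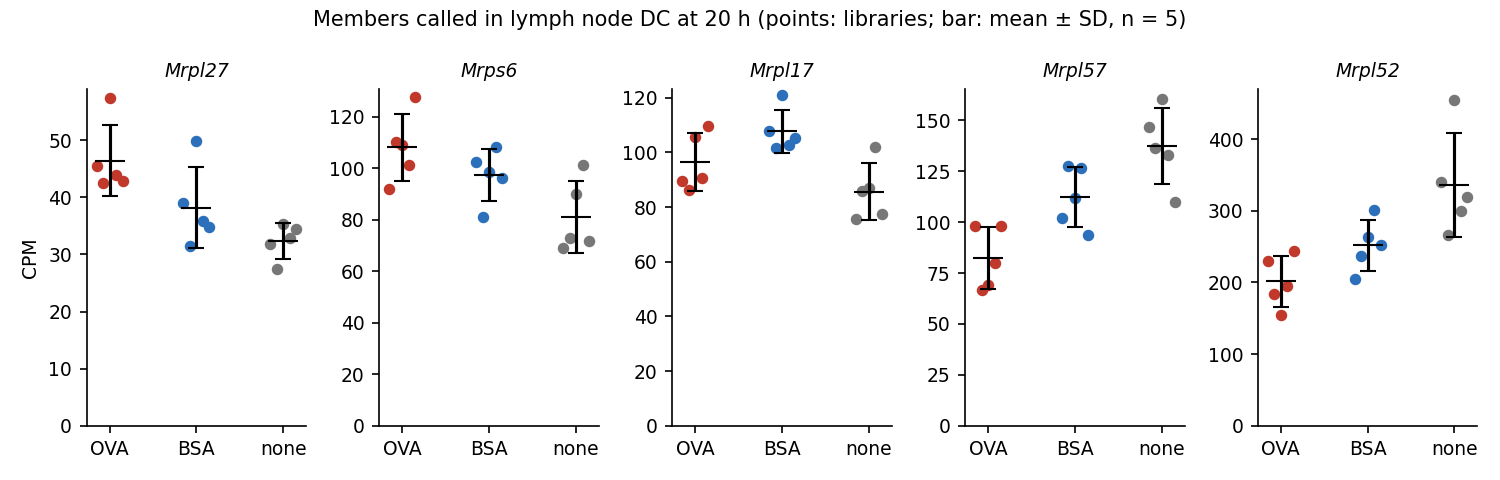
CPM of the 5 members called at 20 h in DC after OVA and CpG particles, after BSA and CpG particles and without immunization, with points for libraries and bars for the mean and SD of 5 libraries. Mrpl27 and Mrps6 stand higher and Mrpl57 and Mrpl52 lower after OVA and CpG particles than without immunization, and Mrpl52 runs from 154.9 to 243.9 CPM against 265.5 to 454.8 CPM.

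Mrps6 and Mrpl52 were called in both the time course and the 20 h DC. Mrps6 was higher against non-immunized DC in both. Mrpl52 was lower against non-immunized DC at 20 h, but in the time course only at 24 h against 12 h after OVA and CpG particles. Against non-immunized DC of the time course it was not called at 24 h after these particles (-0.38, adjusted p = 0.263). The calls of Mrpl14, Mrpl33 and Mrps18c all came from the time course, where Mrpl14 was higher in 3 comparisons with non-immunized DC and at 24 h against 12 h after OVA and CpG particles. At 20 h it ranged from 326 to 587.4 CPM (median 436.3) after OVA and CpG particles, against 340 to 405.1 CPM (median 367.6) in non-immunized DC, with overlap and no call (0.41, adjusted p = 0.108). Mrpl33 at 20 h ranged from 32.15 to 101.3 CPM (median 94.31), against 113.4 to 239.6 CPM (median 128.8), so the groups did not overlap, yet it was not called (-0.73, adjusted p = 0.0639). Mrps18c, high at 12 h in the time course, was at 33.87 and 36.06 CPM in Cd80/86 -/- DC in the costimulation experiment, also at 12 h, and in wild-type DC at 12.95 and 21.28 CPM after OVA particles with OT cells, 11.14 and 7.074 CPM after BSA particles with OT cells, and 41.93 and 21 CPM after OVA particles without OT cells. These values varied as widely within 1 group as between some groups, and none of these comparisons called the gene. The experiments were deposited as separate tables, so levels between them are not compared.

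Beside these members, 25 of 79 cytosolic ribosomal protein genes were lower and 1 higher at 20 h after OVA and CpG particles than in non-immunized DC (median -0.50), with Rpl10 at 76.5 ± 10.4 and 156.2 ± 30.1 CPM (SD, n = 5 each, -0.87 ± 0.17, adjusted p = 0.00143). The median of the mitochondrial ribosomal proteins in that comparison was -0.00 with 36 positive of 73, and the difference between the lists was not tested. Mtif3 averaged 134.1 ± 5.84 CPM after OVA and CpG particles and 89.2 ± 17.5 CPM in non-immunized DC (0.72 ± 0.16, adjusted p = 0.00414). Mtfmt, which makes the formyl-methionine that starts mitochondrial proteins, averaged 13.6 ± 4.01 and 26.8 ± 5.23 CPM (-0.83 ± 0.21, adjusted p = 0.0111). Lrpprc, which stabilises mitochondrial messenger RNA, was lower too (-0.84 ± 0.26, adjusted p = 0.0322). Of 76 oxidative phosphorylation genes, 1 was higher (Sdhc, 0.68) and 2 lower (Ndufa5, -1.17, and Uqcrq, -0.50). Monocyte and macrophage markers summed to 66.25 to 249.1 CPM after OVA and CpG particles, against 521.2 to 1574 CPM in non-immunized DC, and their part in these changes was not tested.

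Members with a particular place in the ribosome were followed in DC whether or not they were called. Mrpl12, the stalk protein called in T cells, was not called in any DC comparison. At 20 h its lowest, median and highest values were 42.87, 50.99 and 71.52 CPM after OVA and CpG particles, 52.2, 61.29 and 71.63 CPM after BSA and CpG particles, and 62.29, 65.43 and 73.53 CPM without immunization. The groups overlapped, and OVA particles against no immunization gave -0.16 (adjusted p = 0.517). Mrps12, of the decoding centre, was at 38.16, 60.65 and 81.35 CPM after OVA and CpG particles, 59.76, 73.21 and 89.75 CPM after BSA and CpG particles, and 63.91, 73.85 and 89.87 CPM without immunization. It was not called either. Of the 3 related Mrps18 genes, Mrps18a, in the large subunit, was at 55.04, 83.94 and 107.3 CPM after OVA and CpG particles, 70.85, 96.81 and 110.5 CPM after BSA and CpG particles, and 64.67, 76.87 and 87.14 CPM without immunization, again with overlap. Mrps18b was near the floor in the time course, at 4.07 and 4.088 CPM at 12 h and 0 and 1.208 CPM at 24 h after OVA and CpG particles, against 8.155 and 6.284 CPM in non-immunized DC. Mrps18c at 20 h ranged from 3.41 to 18.53 CPM over all 15 libraries with no call, whereas it was called in the time course. Mrps30 averaged 33.8 ± 10.3, 35.9 ± 3.18 and 42.5 ± 3.53 CPM after OVA particles, after BSA particles and without immunization at 20 h (SD, n = 5 each). Mrps36, the dehydrogenase subunit, did not exceed 2.358 CPM in any 20 h library. Myc averaged 33.3 ± 16.2 CPM at 12 h and 30.3 ± 4.92 CPM at 24 h after OVA and CpG particles, against 45.4 ± 8.40 CPM in non-immunized DC (SD, n = 2 each), and was not called in these comparisons.

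The summed level of the members in DC was apart between some groups of 2 libraries and overlapped in others. In the time course it was 5801 and 5729 CPM at 12 h and 4828 and 5297 CPM at 24 h after OVA and CpG particles, 5663 and 5242 CPM at 12 h and 4817 and 5251 CPM at 24 h after CpG-only particles, and 6095 and 5401 CPM in non-immunized DC. After OVA and CpG particles both 24 h libraries lay below both 12 h libraries. The 24 h libraries of both particles also lay below both non-immunized libraries. In the costimulation experiment it was 5989 and 5965 CPM in Cd80/86 -/- DC, against 5379 and 5418 CPM in wild-type DC. Both were after OVA particles with OT cells, and these groups did not overlap. The part of cell types in this difference was not tested. Wild-type DC had 5358 and 6538 CPM after BSA particles with OT cells and 5513 and 5892 CPM after OVA particles without OT cells. The wild-type libraries after OVA particles with OT cells thus also lay below both libraries without OT cells. A gap from this group was therefore not particular to Cd80/86 -/- DC. At 20 h its lowest, median and highest values were 4047, 4820 and 5578 CPM after OVA and CpG particles, 4970, 5308 and 5471 CPM after BSA and CpG particles, and 4993, 5394 and 5496 CPM without immunization. The ranges at 20 h overlapped. The large to small subunit ratio was 2.416 to 2.899 in the time course, 2.46 to 2.891 in the costimulation experiment and 2.843 to 3.268 in the 20 h DC.

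As a description of how members moved with each other, each member's log2 level was correlated with the summed level of the other members across the libraries of an experiment. In T cells (6 libraries) the median Pearson r was 0.869, and Mrps28 (0.983), Mrpl36 (0.978) and Mrpl11 (0.977) were most like the sum. In the 20 h DC (15 libraries) the median was 0.389, led by Mrps24 (0.88), Mrpl19 (0.767) and Mrpl34 (0.746). In the time course (10 libraries) the median was 0.381, led by Mrps9 (0.862), and in the costimulation experiment (8 libraries) it was 0.401, led by Mrpl57 (0.937). The libraries share their group differences, and in T cells the depth gap, so these values carry no test. Tested members ranged in mean level from Mrps33 at 8.74 CPM to Mrpl33 at 282.9 CPM in the time course and from Mrps5 at 10.3 CPM to Mrpl14 at 423.9 CPM in the 20 h DC. Counts are not divided by gene length, so this range is no ranking of transcripts. The members that were too low to test were Mrps36, Mrpl23, Mrps18b and Mrpl21 in the time course, Mrps36 and Mrpl23 in the costimulation experiment, and those in the time course with Mrps33 in the 20 h DC.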

How the data were processed

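Poly(A) RNA of sorted lymph node cells was sequenced as bulk libraries. The submitters' processing notes name bcl2fastq, HISAT 0.1.6, HOMER and the build mm9. The 3 DC tables hold raw counts per gene as deposited, and the deposited T cell table holds a normalized signal, called normalized counts here. Its values are whole multiples of 1 step per library within 0.01 reads for 100% of values, as counts divided by a size factor would be, so whole reads were recovered. How its genes were filtered is not given in the sources used here. The authors' deposited columns of log2 fold changes and p-values were read only to count their calls. A further 4 library columns match no label and were left out.

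DC counts were tested with edgeR 4.0.16 (TMM, filterByExpr by group, quasi-likelihood test) over all libraries of an experiment. T cells were tested with limma 3.58.1 (trend) on log2 of the normalized count plus 1, in R 4.3.3, where 3 libraries reached 10 normalized counts. The Benjamini-Hochberg adjustment ran over all tested genes, with calls at 0.05. The fits were tested on simulated data. Alternatives were DESeq2 1.42.0, its size factors, no filter, pseudocounts of 0.5 and 5, edgeR on recovered reads, the replicate number as a block and each library left out. A term for Y-linked transcripts and thinning to equal depth, tested with edgeR, were added after seeing the data.

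Per comparison, up to 6 called members of smallest adjusted p in each direction were named (12 in T cells), or the 2 of smallest p where none was called, with a fixed set of followed members. Other called members, and some members picked after their values were seen, such as Mrpl14 and Mrpl24 in T cells, were added. Pathway genes came from lists, up to 3 per list. The members and lists were chosen with earlier results of these data known. Mitochondrial genome transcripts are not analysed here. Exon overlaps come from GENCODE M21, and promoter sequences from RefSeq GRCm38.p6, matched by symbol.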

Additional observations from a re-analysis of the deposited data

Results flagged for a closer look

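A library far from the others of its group was found in 2 of 48 sets of 5 libraries tested, each a named member in 1 group at 20 h, and chance gives about 1 in 20. Mrpl27 after OVA and CpG particles at 20 h was at 57.48 CPM in the highest library, against 42.52 CPM in the lowest and a median of 43.91 CPM, and the gap took up 0.795 of the range where 0.71 is the critical value. Its call against non-immunized DC was kept without that library. Mrps18b in non-immunized DC of the same experiment was at 3.284 CPM in the highest library, against a median of 0.6626 CPM (0.768 of the range), a level too low for the test.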

How the results depend on the processing

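Of 38 member calls, 8 were kept under every alternative run for them and 0 reversed: Mrpl12, Mrpl15, Mrpl17, Mrpl20 and Mrps6 in T cells, Mrpl14 at 24 h after OVA and CpG particles, and Mrpl27 and Mrpl57 at 20 h after OVA particles, the last 3 against non-immunized DC. DESeq2 called 0 members at 12 h (edgeR 2) and 1 at 24 h (edgeR 2) after CpG-only particles, 1 at 24 h after OVA and CpG particles against non-immunized DC (edgeR 3), and 3 between 24 and 12 h (edgeR 6). Without a filter on low counts, 1 was called at 12 h and 1 at 24 h after CpG-only particles, 4 at 12 h after OVA and CpG particles (2 with it), and 0 after BSA particles at 20 h (1 with it). The term for Y-linked transcripts left 0 after BSA particles. In T cells 9 were called by edgeR after thinning (18 by limma without it), so test and filter changed as well as depth. The cause was not tested.

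Leaving out 1 library gave 5 to 25 calls in T cells, 0 to 2 between 24 and 12 h after OVA and CpG particles, and 0 to 1 between these times after CpG-only particles. Against non-immunized DC it gave 0 to 1 and 0 to 2 (CpG-only, 12 and 24 h), 0 to 2 and 1 to 2 (OVA and CpG, 12 and 24 h), 0 to 1 (BSA, 20 h) and 3 to 5 (OVA, 20 h). It gave 0 to 1 for the OVA effect at 24 h minus 12 h and for OVA against BSA particles at 12 h, and 0 in the other 5 comparisons. Where this leaves an arm with 1 library, that library is assumed to vary like the others.

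The replicate numbers were not taken to pair the samples. Deviations of same-numbered libraries correlated at -0.037, -0.125 and 0.053 in T cells and at -0.14 to 0.171 in DC, and no 2 groups with 3 or more pairs had every correlation over 0.1. With the replicate block, 15 members were called in T cells and 0 after BSA particles at 20 h. The authors' deposited table calls 14 members higher in T cells, among 793 genes called. Against non-immunized DC it calls 2 members at 12 h and 1 at 24 h after OVA and CpG particles, among 798 and 883 genes. After CpG-only particles it calls 0 at 12 h and 0 at 24 h, among 998 and 709 genes. At 20 h it calls 5 after OVA and 1 after BSA particles, among 1537 and 654 genes. In its other comparisons it calls 0 members, among 6 to 479 genes. Shares of all genes tested were not computed for these columns. With 2 libraries per group in most DC comparisons, a change not called may be too small to detect.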
